A study of Mus musculus with 48 samples.

Results

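The kainate receptor subunit genes Grik1, Grik2, Grik3, Grik4 and Grik5 and the auxiliary subunit genes Neto1 and Neto2 were followed after kainate was injected into the hippocampus. These 7 genes were taken by name from the 55357 genes of the count table, as the targets of the injected drug and the proteins that attach to those targets. RNA was sequenced in 48 libraries from 24 wild-type C57BL/6J mice. The labels' design text gives their age as 6 to 8 weeks, and the methods give a somewhat later age. Each mouse received either kainate or saline into the hippocampus of 1 hemisphere and gave 1 library from the dorsal dentate gyrus of the injected side, the epileptogenic zone (EZ), and 1 from the dorsal dentate gyrus of the other side, the peri-ictal zone (PIZ). Tissue was taken at day 3, day 7 or day 14, which made 12 groups of 4 libraries, each from 2 male and 2 female mice. The saline mice had the same operation on the same side, so the EZ of both treatments carried a needle track. All kainate mice were recorded to have had behavioral seizures after the injection, and seizures were not recorded by EEG.

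Kainate receptors are glutamate-gated ion channels assembled from several subunits. The products of Grik1, Grik2 and Grik3 (GluK1, GluK2 and GluK3) can form channels by themselves and are called the low-affinity subunits. The products of Grik4 and Grik5 (GluK4 and GluK5) reach the membrane as working channels with a partner of the first kind and raise the affinity for agonist. Neto1 and Neto2 are membrane proteins that bind these channels and slow their gating. In the hippocampus the receptors are best known from the mossy fiber synapses that granule cells of the dentate gyrus make on CA3 pyramidal cells, and GluK2 is known to be needed for much of the seizure response to kainate.

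The 48 libraries held 17762656 to 25712975 counts each (median 22108562). Granule cell markers were present in every library, and their sum lay between 170.5 and 1098.8 CPM (counts scaled to a common library size after TMM normalization), the scale used for all single-library levels here. In the EZ, the sum of 7 neuron markers had a median of 4909, 5301 and 4801 CPM at day 3, 7 and 14 in saline libraries. In kainate libraries it was 2970, 2298 and 4435 CPM. The sum of 6 microglia markers had a median of 426, 316 and 290 CPM in saline and of 1101, 2326 and 434 CPM in kainate at the same days. Over all saline libraries, the most abundant neuron markers were Snap25 and Syt1 and the most abundant microglia markers Csf1r and Cx3cr1. The kainate libraries within a group were not always alike. In the EZ at day 7, mice 21 and 35 had neuron sums of 1377 and 1526 CPM and microglia sums of 4181 and 3019 CPM, against 3401 and 3069 CPM and 1126 and 1634 CPM in mice 23 and 26. In the EZ at day 14, mouse 27 had a neuron sum of 2896 CPM and a microglia sum of 2003 CPM, and the microglia sums of the other 3 mice were 335, 393 and 474 CPM. In such bulk tissue, fewer neurons and less RNA per neuron cannot be told apart.

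Among the PIZ libraries, 3 stood apart in Grik1 and Neto1 and were among the highest in Grik4. These libraries were the saline library of mouse 18 at day 3, the kainate library of mouse 21 at day 7 and the saline library of mouse 39 at day 14. Grik1 was at 13.8, 16.4 and 17.6 CPM in them, against 5.30 to 10.03 CPM in the other 21 PIZ libraries. Neto1 was at 297, 265 and 283 CPM in them, against 86.2 to 197 CPM in the others. Grik4 was at 114, 109 and 94.3 CPM, and the others reached 96.3 CPM. The 4 mossy cell markers fixed for the tissue (Calb2, Drd2, Ajap1 and Calcrl) summed to 112, 132 and 155 CPM in these 3 libraries and to at most 86.8 CPM in any other library. These sums rested on Calb2, which also marks some interneurons and immature granule cells and which was at 65.4, 89.8 and 105 CPM in the 3 libraries and at 5.48 to 45.3 CPM in the other PIZ libraries. Ajap1 and Drd2 lay within the range of the other PIZ libraries, and Calcrl (12.1, 10.5 and 11.6 CPM) was at or just above the upper end of theirs. The granule cell sums of the 3 libraries were 482, 330 and 429 CPM, the lowest values of their groups. The kainate effects in the PIZ and the differences between the sides were therefore also fitted without these 3, and the values that moved are given. This choice was made after the data were seen. Because the 3 were seen to be high in Grik1, Grik4 and Neto1, changes of these genes without them follow partly from the choice. The part of mossy cells or other Calb2-expressing cells in the values was not tested.

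**Figure D1:**
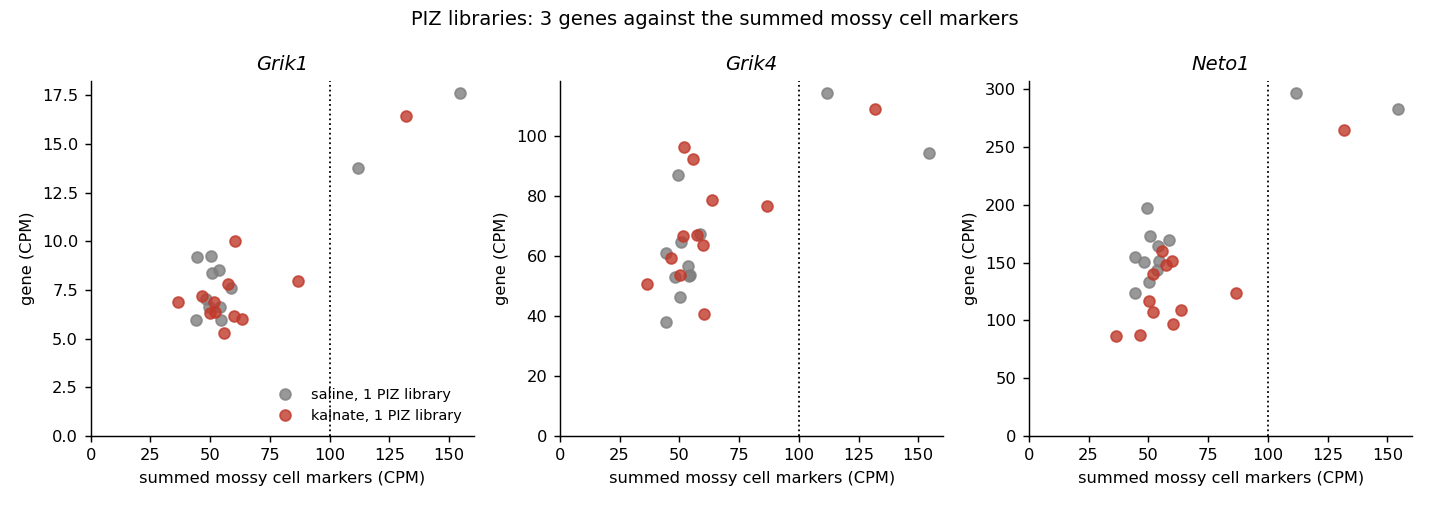
Level of Grik1, Grik4 and Neto1 (CPM, vertical axes) against the summed CPM of 4 mossy cell markers (horizontal axes) in the 24 PIZ libraries, saline in grey and kainate in red, with a dotted line at 100 CPM. The 3 libraries to the right of the line hold the highest Grik1 and Neto1 levels, 13.8 to 17.6 CPM and 265 to 297 CPM, and Grik4 at 94.3 to 114 CPM.

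All 7 genes are protein-coding. In GRCm39, with positions from Gencode M39, Grik1 (ENSMUSG00000022935.17) lies on chromosome 16 at 87692788-88087153 on the minus strand. Grik2 (ENSMUSG00000056073.17) lies on chromosome 10 at 48970929-49664880 on the minus strand, and Grik3 (ENSMUSG00000001985.10) on chromosome 4 at 125384202-125607966 on the plus strand. Grik4 (ENSMUSG00000032017.15) lies on chromosome 9 at 42429431-42856154 on the minus strand, and Grik5 (ENSMUSG00000003378.10) on chromosome 7 at 24709269-24772708 on the minus strand. Neto1 (ENSMUSG00000050321.4) lies on chromosome 18 at 86412139-86524844 on the plus strand, and Neto2 (ENSMUSG00000036902.12) on chromosome 8 at 86363217-86429213 on the minus strand. The genes do not form a cluster.

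In saline EZ tissue the high-affinity subunit gene Grik5 was the most abundant of the 7 and the low-affinity subunit gene Grik1 the least. Levels between genes were compared as CPM per kilobase of annotated exon over the 12 saline EZ libraries. Grik5 had a median of 23.8 (18.8 to 27.4) and Neto1 one of 11.2 (9.32 to 14.6), and these ranges overlapped neither each other nor any other gene. Grik2 at 5.80 (5.46 to 6.93), Grik4 at 5.44 (3.79 to 7.22), Grik3 at 5.20 (3.62 to 6.11) and Neto2 at 4.74 (3.45 to 5.78) had overlapping ranges, so their order is within the spread between mice. Grik1 was at 1.01 (0.710 to 1.201), below the range of every other gene. In the 12 saline PIZ libraries the ranges of Grik5 (16.7 to 25.3) and Neto1 (10.6 to 25.3) overlapped. The range of Grik1 there (0.884 to 2.62) was again below that of every other gene. Grik1 was also the gene with the fewest reads, 106 to 164 in a saline EZ library and down to 21 in a kainate one, and its values carry the largest counting error. The union of exons of all transcripts was used as the length, which lowers the value of genes with long rarely used exons, such as Grik2 with 16828 exon bases.

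In the saline mice no gene of the 7 was called different between the EZ and the PIZ, where 0.0234% of all 21390 genes tested were called. A gene was called when edgeR's quasi-likelihood test gave a Benjamini-Hochberg adjusted p under 0.01 over all genes and the fold change was over 1.5. The largest differences on the log2 scale, EZ minus PIZ, were those of Grik1 at -0.40 ± 0.21 (SE, 12 mice), Neto1 at -0.39 ± 0.17 and Grik4 at -0.34 ± 0.18, the genes that were high in the 3 PIZ libraries. Without these libraries the differences were -0.20, -0.19 and -0.15. These libraries were set apart after their levels of the same genes were seen, so smaller differences without them follow from the choice.

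The sequences before the gene starts are shown for Grik3, Grik4 and Grik5, because their edgeR calls in the EZ fell on different days. Grik3 was called lower at day 7 and day 14, Grik4 at day 3 and day 7, and Grik5 at no day. A difference in course between these genes was not tested, and edgeR called no change of their kainate effects between days. The day 14 call of Grik3 was lost under several alternatives given below. Grik5 was called at day 7 under limma-voom with quality weights. Each is the run of 250 bases before the start given by RefSeq in GRCm38.p6, an older build than the one used for the gene positions, at chr4:125490446-125490695 (plus strand), chr9:42944372-42944621 (minus strand) and chr7:25072370-25072619 (minus strand). They are written 5′ to 3′ along the gene, and capitals mark GC boxes (GGGCGG on either strand), the binding motif of Sp1-type factors common in promoters without a TATA box.
Grik3: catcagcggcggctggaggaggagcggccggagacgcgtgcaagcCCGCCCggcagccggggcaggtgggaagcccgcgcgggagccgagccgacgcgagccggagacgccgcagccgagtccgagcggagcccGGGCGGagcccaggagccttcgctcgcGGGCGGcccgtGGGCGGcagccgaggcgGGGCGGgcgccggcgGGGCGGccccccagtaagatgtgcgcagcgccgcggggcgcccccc
Grik4: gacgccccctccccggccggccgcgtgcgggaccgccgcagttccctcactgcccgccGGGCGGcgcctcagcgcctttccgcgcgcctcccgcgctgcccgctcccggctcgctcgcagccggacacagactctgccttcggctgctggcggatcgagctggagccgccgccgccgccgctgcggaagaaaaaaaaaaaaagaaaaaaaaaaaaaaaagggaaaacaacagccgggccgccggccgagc
Grik5: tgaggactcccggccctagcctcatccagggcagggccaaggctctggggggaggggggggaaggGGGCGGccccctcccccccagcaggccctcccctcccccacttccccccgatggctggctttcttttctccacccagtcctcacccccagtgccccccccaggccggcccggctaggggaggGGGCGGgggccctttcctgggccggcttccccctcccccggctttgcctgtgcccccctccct

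Grik3 held 6 such motifs, Grik4 held 1 and Grik5 held 2. Of the 32851 windows of this length in the same table, 32.7% held at least 1 and 16.7% held 2 or more. The G and C content was 82.0% for Grik3, 69.6% for Grik4 and 75.2% for Grik5, against a median of 52.4% over all windows. Grik3 held 42 CpG dinucleotides, Grik4 36 and Grik5 8, with a median of 6 over all windows. The Grik2 window held no GC box and had a G and C content of 62.8%. The motif matches are a description of the windows and were not set against any measurement of binding.

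Grik1, Grik4 and Neto2 fell in the EZ at day 3, and edgeR did not call the other 4 genes. All 3 called members were lower, and 8.61% of all genes were called and lower in this comparison. Every kainate library was below every saline library for Grik1, Grik4, Neto1 and Neto2, as it was for 18.5% of all genes. The values below are given for mice 38, 30, 44 and 42 (kainate) and mice 29, 37, 18 and 41 (saline), in this order.

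Of the low-affinity subunits at day 3, Grik1 was at 1.65, 1.38, 4.38 and 1.67 CPM after kainate and at 4.77, 7.19, 6.05 and 7.11 CPM after saline. The groups did not overlap, and mouse 44 was close to the lowest saline mouse. The log2 fold change of Grik1 was -1.48 ± 0.38 (SE), a fall to 0.359 of the saline level, with an adjusted p of 0.00144. Grik2 was at 46.9, 74.0, 93.3 and 53.3 CPM after kainate and at 98.5, 95.6, 95.1 and 91.9 CPM after saline. Mouse 44 lay within the saline range and the other 3 below it, and Grik2 was not called by edgeR (log2 fold change -0.51 ± 0.23, adjusted p = 0.0608). Under limma-voom with quality weights it was -0.77 and was called (adjusted p = 1.80e-07). Grik3 was at 33.1, 59.9, 58.0 and 33.7 CPM after kainate and at 53.7, 47.4, 39.4 and 53.6 CPM after saline. The kainate mice of Grik3 lay on both sides of the saline range, with a log2 fold change of -0.07 ± 0.22 and an adjusted p of 0.812.

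Of the high-affinity subunits at day 3, Grik4 was at 16.8, 25.7, 40.2 and 18.1 CPM after kainate and at 44.3, 44.6, 69.4 and 55.3 CPM after saline. All kainate mice were below all saline mice, and the log2 fold change was -1.09 ± 0.32, a fall to 0.471 of the saline level (adjusted p = 0.00537). Grik5 was at 126, 141, 191 and 166 CPM after kainate and at 175, 187, 226 and 201 CPM after saline. The groups of Grik5 overlapped through mouse 44, and the log2 fold change of -0.34 ± 0.14 was not called (adjusted p = 0.0443).

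Of the auxiliary subunits at day 3, Neto2 was at 31.1, 29.6, 34.3 and 24.5 CPM after kainate and at 42.5, 52.2, 43.1 and 46.7 CPM after saline. The groups were apart, and Neto2 fell to 0.648 of the saline level (log2 fold change -0.63 ± 0.17, adjusted p = 0.00233). Neto1 was at 65.1, 97.4, 80.8 and 77.7 CPM after kainate and at 128, 112, 171 and 145 CPM after saline. These groups did not overlap either, but the log2 fold change of -0.79 ± 0.30 was not called (adjusted p = 0.0262), and it was called when the 3 PIZ libraries with a high mossy cell marker sum were left out of the fit (adjusted p = 0.00470), with only the 2 groups in the fit (0.00258) and under quality weights (1.31e-04). Scaling by library size only ended the calls of Grik4 (-0.96, adjusted p = 0.0114) and Neto2 (-0.50, adjusted p = 0.0126). The call of Grik1 was lost without kainate mouse 38 (log2 fold change -1.35, adjusted p = 0.0106). The call of Grik4 was lost without kainate mouse 38, 30 or 42 (-0.93, -1.10 and -0.96) or saline mouse 18 or 41 (-0.93 and -1.07), and that of Neto2 without kainate mouse 42 (-0.54) or saline mouse 37 (-0.56).

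**Figure D2:**
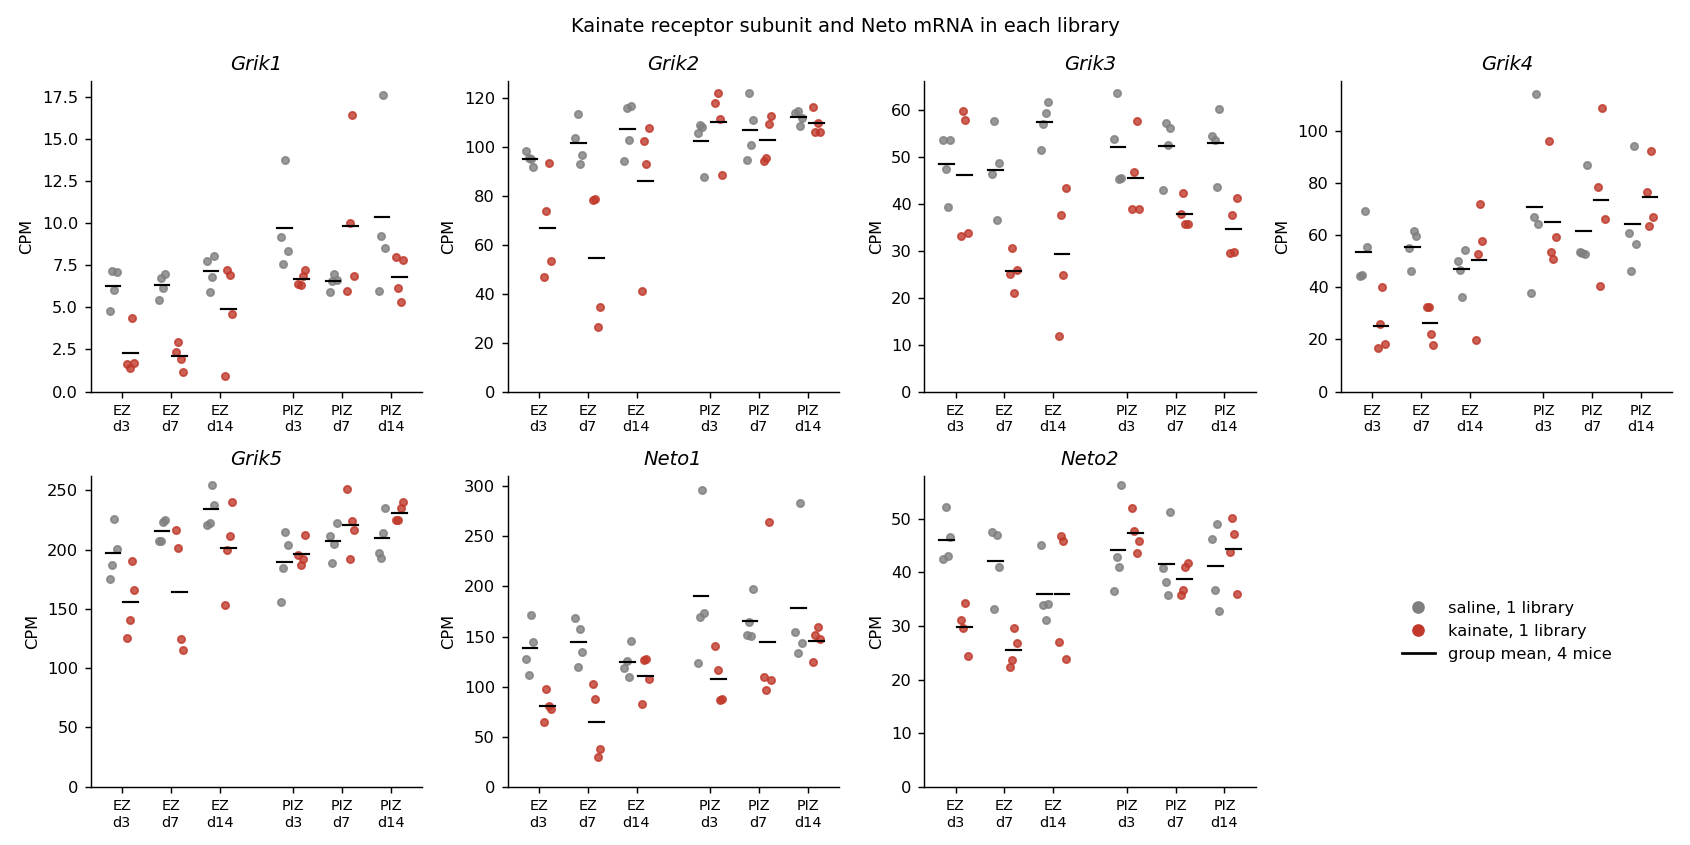
Level (CPM, vertical axes, from 0) of each of the 7 genes in every library, by side and day on the horizontal axes, with saline in grey, kainate in red and the mean of 4 mice as a black line. In the EZ at day 7 the kainate libraries of all genes but Grik5 sit below all saline libraries. In the PIZ, single high points of Grik1 and Neto1 are the libraries of mice 18, 21 and 39.

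Grik1, Grik2, Grik3, Grik4, Neto1 and Neto2 fell in the EZ at day 7, and edgeR did not call Grik5. The 6 called members were all lower, where 11.9% of all genes were called and lower. The kainate and saline groups did not overlap for the same 6 genes, as for 20.1% of all genes. Values follow for mice 23, 26, 21 and 35 (kainate) and mice 89, 33, 20 and 34 (saline).

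Grik1 was at 2.35, 2.92, 1.92 and 1.16 CPM after kainate and at 5.46, 6.77, 6.18 and 6.97 CPM after saline at day 7, the strongest fall of the 7 genes (log2 fold change -1.60 ± 0.38, to 0.330 of saline, adjusted p = 5.02e-04). Grik2 was at 78.5, 78.7, 26.5 and 34.7 CPM after kainate and at 103, 113, 92.9 and 96.6 CPM after saline (-0.90 ± 0.23, adjusted p = 0.00106). The kainate mice of Grik2 fell into a pair close under the saline range and a pair, mice 21 and 35, far below it. Grik3 was at 25.0, 30.7, 20.9 and 25.9 CPM after kainate and at 46.4, 57.7, 36.6 and 48.8 CPM after saline (-0.89 ± 0.22, adjusted p = 9.88e-04). Unlike Grik2, Grik3 was low to a like degree in all 4 kainate mice.

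Grik4 was at 32.4, 32.4, 22.1 and 17.7 CPM after kainate and at 55.0, 46.1, 61.6 and 59.6 CPM after saline at day 7 (log2 fold change -1.09 ± 0.32, adjusted p = 0.00411). Grik5 was at 216, 202, 125 and 115 CPM after kainate and at 208, 207, 223 and 225 CPM after saline. Mice 23 and 26 held Grik5 at or near the saline range while mice 21 and 35 did not, and the log2 fold change was -0.39 ± 0.14 (adjusted p = 0.0172). Under limma-voom with quality weights it was -0.68 and was called (adjusted p = 4.89e-05).

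Neto1 was at 102, 87.3, 30.1 and 37.6 CPM after kainate and at 168, 119, 158 and 134 CPM after saline at day 7 (log2 fold change -1.17 ± 0.30, to 0.444 of saline, adjusted p = 0.00107). Neto2 was at 22.3, 23.6, 29.6 and 26.9 CPM after kainate and at 47.6, 33.1, 47.0 and 41.02 CPM after saline (-0.72 ± 0.17, adjusted p = 4.44e-04). The mice ordered differently in these 2 genes: mice 21 and 35 had the lowest Neto1 and the highest Neto2 of the kainate group. The call of Grik2 was lost without kainate mouse 21 (-0.67, adjusted p = 0.0125) or 35 (-0.73, adjusted p = 0.0120), and that of Grik4 without kainate mouse 21 (-1.01) or 35 (-0.94) or saline mouse 20 (-1.04). In a fit of the 2 groups alone the calls of Grik2 (adjusted p = 0.0582) and Neto1 (adjusted p = 0.0337) were lost, and under quality weights that of Neto2 (-0.63, adjusted p = 0.0195).

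Grik3 was called lower in the EZ at day 14 and the other 6 genes were not called. At this day 0.0374% of all genes, 8 genes in all, were called and lower, and Grik3 was among them. Grik3 was at 11.8, 37.7, 25.0 and 43.4 CPM in kainate mice 27, 36, 14 and 40 and at 51.6, 57.2, 59.5 and 61.8 CPM in saline mice 24, 28, 39 and 31. The groups did not overlap, as for 3.42% of all genes, and the log2 fold change was -0.97 ± 0.22, a fall to 0.512 of the saline level (adjusted p = 0.00618). The size depended on mouse 27, without which it was -0.70 with an adjusted p of 0.246. The call was also lost without kainate mouse 14 (-0.90) or saline mouse 24 (-1.02), 28 (-0.97), 39 (-0.95) or 31 (-0.93), with adjusted p between 0.0167 and 0.0300, and with the mouse as a replicate block in limma-voom (-1.13, adjusted p = 0.0342). In a fit of the 2 groups alone, the adjusted p was 0.560.

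The kainate and saline groups of the other genes overlapped at day 14. Of the 4 kainate mice, 2 were below the saline range for Grik1, 2 for Grik2 and 3 for Grik5, and none was above it for these genes. Grik1 was at 0.952, 7.25, 6.91 and 4.64 CPM after kainate and at 7.76, 5.94, 6.83 and 8.07 CPM after saline (log2 fold change -0.54 ± 0.36, adjusted p = 0.449). Grik2 was at 40.9, 103, 93.2 and 108 CPM after kainate against 94.2 to 117 CPM after saline (-0.32 ± 0.23). Grik4 was at 19.7, 52.8, 72.0 and 57.7 CPM after kainate against 36.4 to 54.4 CPM after saline (0.11 ± 0.32). Mouse 27, with a neuron sum below and a microglia sum above the other kainate mice of this day, was the lowest kainate library for Grik1, Grik2, Grik3, Grik4, Grik5 and Neto1. Grik5 was at 153, 199.7, 211 and 240 CPM after kainate against 220 to 255 CPM after saline. Without mouse 27 the log2 fold changes of Grik1, Grik2 and Grik5 were closer to 0, at -0.20, -0.087 and -0.11. With it the log2 fold changes of Grik5, Neto1 and Neto2 were -0.22 ± 0.14, -0.17 ± 0.30 and -0.01 ± 0.17. That of Neto1 lay between -0.24 and -0.049 with 1 mouse left out.

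**Figure D3:**
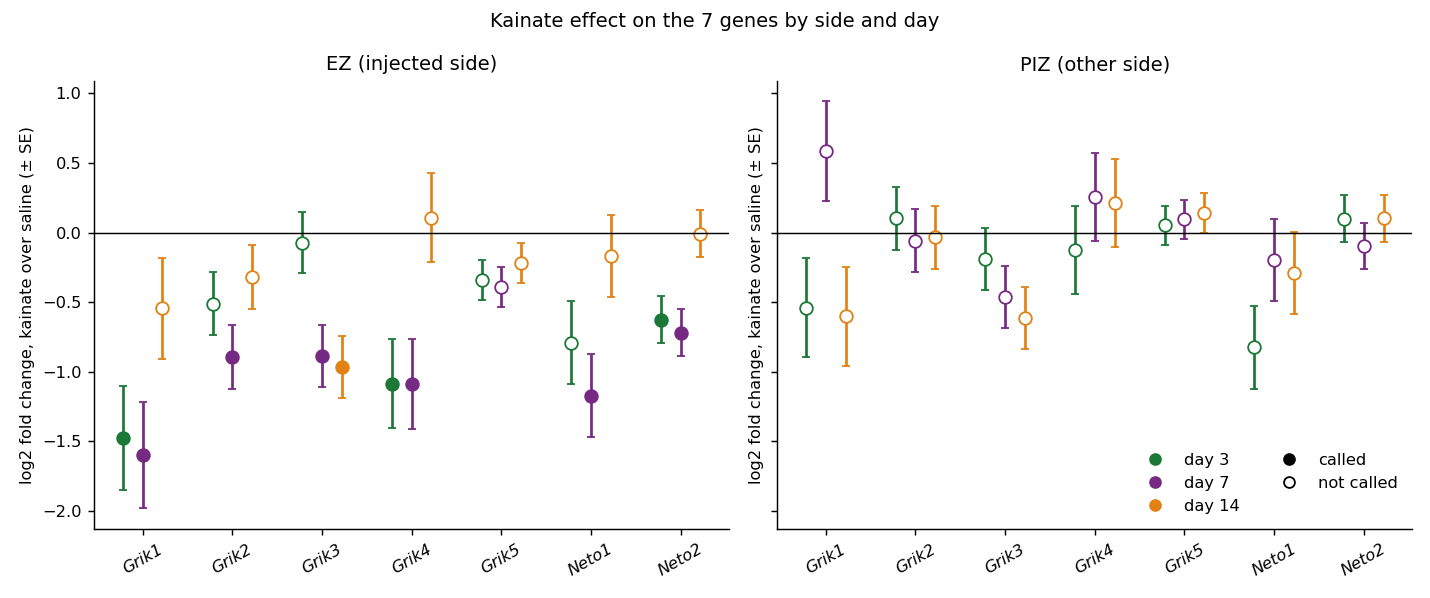
Log2 fold change of kainate over saline (vertical axis, ± SE from edgeR) for the 7 genes in the EZ (left) and the PIZ (right) at day 3 (green), day 7 (purple) and day 14 (orange), with filled points for calls at an adjusted p under 0.01 and a fold over 1.5. Filled points are the 3 of day 3, 6 of day 7 and 1 of day 14 in the EZ, and the PIZ panel has none.

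In the PIZ edgeR called no gene of the 7 at day 3, 7 or 14, and 1 of the 7 had an unadjusted p under 0.05 at each day (Neto1 at day 3 and Grik3 at day 7 and day 14), as had 7641, 3104 and 1277 of all 21390 genes. DESeq2 called none at any day, and limma-voom with quality weights called Neto1 at day 3 and Grik3 at day 14 (adjusted p = 0.00601 and 0.00783). Genes called and lower made up 1.57%, 0.0514% and 0.00468% of all genes at these days. At day 3 Grik1 was at 6.38, 6.31, 6.87 and 7.20 CPM in kainate mice 38, 30, 44 and 42 and at 9.18, 7.58, 13.8 and 8.38 CPM in saline mice 29, 37, 18 and 41. These groups did not overlap, as for 13.6% of all genes, but the fold change was not called (log2 -0.54 ± 0.35, adjusted p = 0.278). Without the 3 libraries with a high mossy cell marker sum it was -0.33.

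Neto1 in the PIZ at day 3 was at 140, 116, 86.2 and 87.6 CPM after kainate and at 124, 169, 297 and 173 CPM after saline. The log2 fold change of Neto1 was -0.83 ± 0.30 with an adjusted p of 0.0389. Without the 3 libraries it was -0.53 with an adjusted p of 0.128. Grik4 changed direction with these libraries at day 3, from -0.13 ± 0.31 with them to 0.20 without.

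Grik3 in the PIZ was at 38.9, 46.9, 57.8 and 38.9 CPM after kainate and at 54.0, 63.7, 45.4 and 45.5 CPM after saline at day 3, with overlapping groups and a log2 fold change of -0.19 ± 0.22 (-0.25 without the 3 libraries). At day 7 it was at 37.9, 42.3, 35.8 and 35.7 CPM in kainate mice 23, 26, 21 and 35 and at 43.1, 57.3, 52.6 and 56.2 CPM in saline mice 89, 33, 20 and 34. At day 14 it was at 29.6, 37.6, 29.8 and 41.4 CPM in kainate mice 27, 36, 14 and 40 and at 54.5, 53.6, 43.6 and 60.2 CPM in saline mice 24, 28, 39 and 31. Every kainate mouse was below every saline mouse at both later days, as for 5.26% and 3.47% of all genes, and no other gene of the 7 had separate groups at these days. The log2 fold changes were -0.46 ± 0.22 (adjusted p = 0.325) and -0.62 ± 0.22 (adjusted p = 0.571), so neither was called. Without the 3 libraries they were -0.44 and -0.70.

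Grik2, Grik5 and Neto2 in the PIZ had log2 fold changes between -0.10 and 0.14 at the 3 days, each within 1 SE of 0, and between -0.12 and 0.20 without the 3 libraries. Grik2 lay between 87.7 and 122 CPM in all 24 PIZ libraries, and Grik5 between 156 and 251 CPM. Grik1 at day 7 was at 5.99, 10.03, 16.4 and 6.86 CPM after kainate and at 5.94, 6.60, 7.01 and 6.65 CPM after saline (0.59 ± 0.36). Without the 3 libraries this difference was 0.22. The other kainate effects in the PIZ were -0.60 ± 0.35 for Grik1 at day 14, 0.26 ± 0.32 and 0.21 ± 0.32 for Grik4 and -0.20 ± 0.29 and -0.29 ± 0.29 for Neto1 at day 7 and day 14. Without the 3 libraries these were -0.22 for Grik1, 0.01 and 0.45 for Grik4 and -0.67 and 0.02 for Neto1, so that Neto1 at day 14 changed direction.

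The difference between the sides was tested as the EZ effect minus the PIZ effect of the same day. At day 7 it was called for Grik1 (log2 -2.19 ± 0.52, adjusted p = 0.00379), where 9.89% of all genes were called. This call rested partly on the PIZ library of mouse 21: without the 3 libraries with a high mossy cell marker sum the difference was -1.82 with an adjusted p of 0.0126. It was also lost without kainate mouse 21 (-1.78) or 35 (-2.11) or saline mouse 89 (-2.21), 33 (-2.16), 20 (-2.23) or 34 (-2.15). Grik4 had a difference of -1.35 ± 0.45 (adjusted p = 0.0250) at day 7, called without kainate mouse 26 (-1.67, adjusted p = 0.00779). The differences of Grik2, Neto1, Neto2 and Grik5 at day 7 were -0.84 ± 0.32, -0.97 ± 0.42, -0.62 ± 0.24 and -0.49 ± 0.20, with adjusted p between 0.0475 and 0.0777. That of Neto1 depended on single mice, at -0.26 when kainate mouse 21 was left out and -1.40 when mouse 23 was. Without the 3 libraries the differences of Neto1 and Grik4 were -0.50 and -1.09, and those of Grik2, Neto2 and Grik5 were -0.81, -0.60 and -0.48. Both libraries of a mouse enter these differences, and with the mouse as a replicate block in edgeR Grik1 was again called at day 7 (-2.14, adjusted p = 0.00786) and the other 6 genes were not. At day 3 edgeR called no gene of the 7 (2 had an unadjusted p under 0.05, as had 3828 of all genes), where 0.0655% of all genes were called, and the largest difference relative to its error was that of Neto2 (-0.73 ± 0.24, adjusted p = 0.108). At day 14 edgeR called none of the 7 and 0% of all genes, while 1562 genes had an unadjusted p under 0.05. The Grik3 difference between the sides was 0.12 ± 0.31, -0.42 ± 0.32 and -0.35 ± 0.31 at day 3, 7 and 14, so a different effect on the 2 sides was not shown for Grik3.

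Changes of the kainate effect between days were not called by edgeR for any of the 7 genes. In the EZ, 0.145% of all genes were called from day 3 to day 7 and 0.271% from day 7 to day 14, and 1 and 4 of the 7 had an unadjusted p under 0.05, as had 2565 and 7081 of all genes. The PIZ had calls for 0.0234% and 0% of all genes, with 658 genes at an unadjusted p under 0.05 in the latter case. Of the 7, Grik1 had an unadjusted p under 0.05 in both, with changes of 1.13 ± 0.50 and -1.19 ± 0.50 (neither was called, and the adjusted p of the first was 0.416), and without the 3 libraries these were 0.55 and -0.44. From day 3 to day 7 in the EZ, Grik3 had the largest change relative to its error, -0.81 ± 0.31 (adjusted p = 0.258). From day 7 to day 14, the effects on Neto2, Grik4, Neto1 and Grik1 moved toward 0 by 0.71 ± 0.24, 1.196 ± 0.45, 1.003 ± 0.42 and 1.06 ± 0.52, with adjusted p of 0.0404, 0.0630, 0.0897 and 0.151. Without kainate mouse 27, the changes of Neto2 (0.82) and Grik4 (1.46) were called. The effect on Grik3 moved by -0.08 ± 0.32 over the same days.

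The makeup of the subunit pool was described with CPM per kilobase of exon as shares of the 5 subunits. In single libraries Grik5 made up 48.2% to 74.0% of the sum, Grik2 8.03% to 18.8%, Grik4 7.10% to 24.8%, Grik3 5.23% to 20.9% and Grik1 0.636% to 5.68%. The mean Grik5 share was 57.1% in saline and 66.7% in kainate EZ libraries at day 7. The mean Grik3 share in the EZ was 12.7% in saline and 16.1% in kainate at day 3, and 13.2% and 7.82% at day 14. The log2 ratio of the high-affinity pair (Grik4 and Grik5) to the low-affinity genes (Grik1, Grik2 and Grik3) was higher after kainate by 0.43 in the EZ at day 7, 0.52 in the EZ at day 14 and 0.46 in the PIZ at day 14. The differences were -0.07 in the EZ at day 3, 0.10 in the PIZ at day 3 and 0.27 in the PIZ at day 7, with exact permutation p of 0.771, 0.571 and 0.20. At day 14 every kainate library was above every saline library on both sides, from 1.31 to 2.31 against 1.10 to 1.29 in the EZ and from 1.49 to 1.76 against 0.92 to 1.29 in the PIZ. In 2-sided exact permutation tests of 4 mice against 4, p was 0.0286 at both, the smallest this design allows, and 0.0571 in the EZ at day 7. Over the 12 ratio tests made, no adjusted p was under 0.114, so these ratios are reported as not passing the correction. An adjusted p is never below its own p, so with 4 mice against 4 none could fall under 0.01 whatever the data. The EZ difference at day 14 rested partly on mouse 27, without which it was 0.32. With counts not divided by length, the EZ ratio at day 14 had a difference of 0.44 and an exact p of 0.0857.

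**Figure D4:**
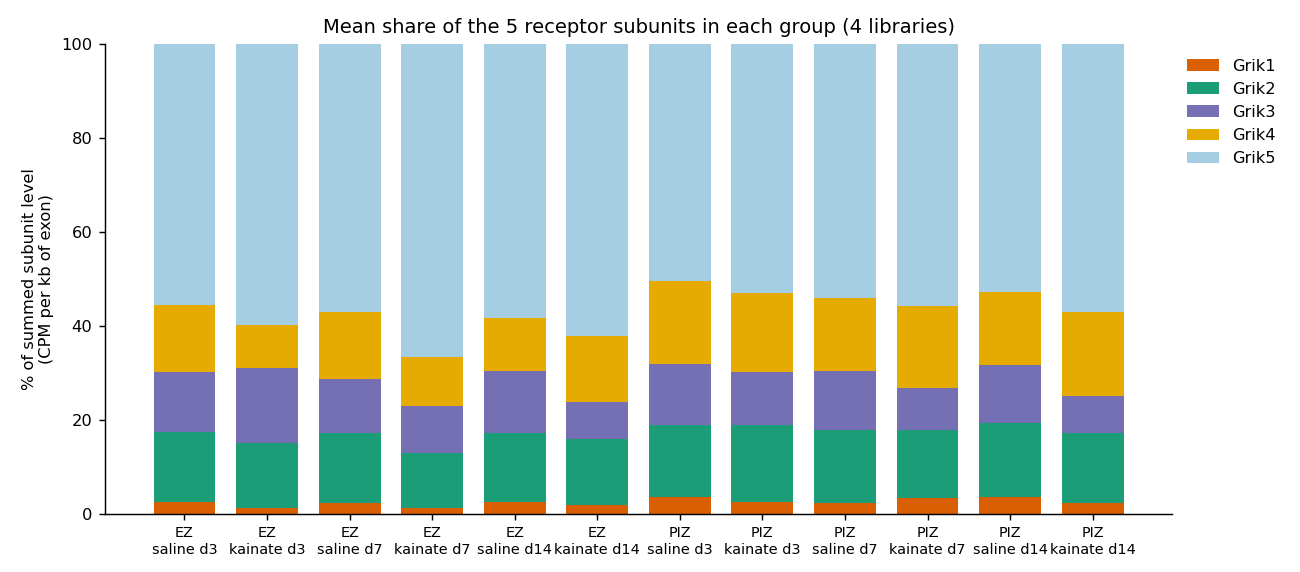
Mean share (percent, vertical axis, 4 libraries a group) of each of the 5 receptor subunit genes in their summed CPM per kilobase of exon, for the 12 groups of side, injection and day. Grik5 takes more than 50% in every group and most, 66.7%, in the EZ kainate group of day 7, and Grik1 takes the least in each.

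The log2 ratio of Neto2 to Neto1 per kilobase was -0.56 to -1.05 in kainate and -1.25 to -2.48 in saline PIZ libraries at day 3, a difference of 0.90 (exact permutation p = 0.0286, adjusted p = 0.114). Without saline mouse 18, one of the 3 libraries with high Neto1, it was 0.63. In the EZ at day 7 the kainate libraries were split, with mice 21 and 35 at 0.35 and -0.10 and mice 23 and 26 at -1.82 and -1.51, against -1.33 to -1.47 in saline. Neto1 mRNA was the more abundant of the pair per kilobase in 47 of 48 libraries, the exception being the EZ library of mouse 21 at day 7.

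Because neuron sums were lower after kainate in the EZ at day 3 and day 7, with overlapping groups at day 14, and in the PIZ at day 3 (4104 to 4582 CPM after kainate and 4757 to 6202 CPM after saline), each gene was also set against the summed neuron markers of the same library, a description added after the data were seen and not tested. The neuron sum itself was lower after kainate in the EZ by a log2 difference of -0.84, -1.27 and -0.21 at day 3, 7 and 14, so a gene whose own level did not differ has a higher ratio. Over all genes the median difference of this ratio was 0.86, 1.27 and 0.20, and in 63.6% and 69.8% of genes every kainate library was above every saline library at day 3 and day 7. In the EZ, Neto1 followed the neuron sum, with a log2 ratio that differed between kainate and saline by 0.05, -0.07 and 0.03 at day 3, 7 and 14, and with overlapping groups. Grik5 was higher relative to the neuron sum by 0.48 at day 3, where the lowest kainate library was just above the highest saline library, and by 0.83 at day 7 with no overlap. Its difference at day 14 was -0.03. In the PIZ at day 3 the ratios of Grik5 and Neto2 were higher by 0.43 and 0.48 with no overlap between groups, as in 36.8% of all genes, where the neuron sum differed by -0.37 and the median gene by 0.38. The separate groups of these ratios are therefore no result about Grik5, Grik3 or Neto2. The differences of Grik2 and Neto1 there were 0.46 and -0.41, with overlapping groups. Grik3 was higher by 0.72 at day 3 with no overlap, and its difference at day 14 was -0.92, where 1 kainate library (-6.47) lay within the saline range (-6.61 to -6.21). The differences of Grik1 were -0.78, -0.40 and -0.67 with overlapping groups. For Grik2, Grik4 and Neto2 the EZ differences lay between -0.31 and 0.56, and all groups overlapped. Some of the 7 genes may also be expressed outside neurons, so this ratio is not a level per neuron.

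**Figure D5:**
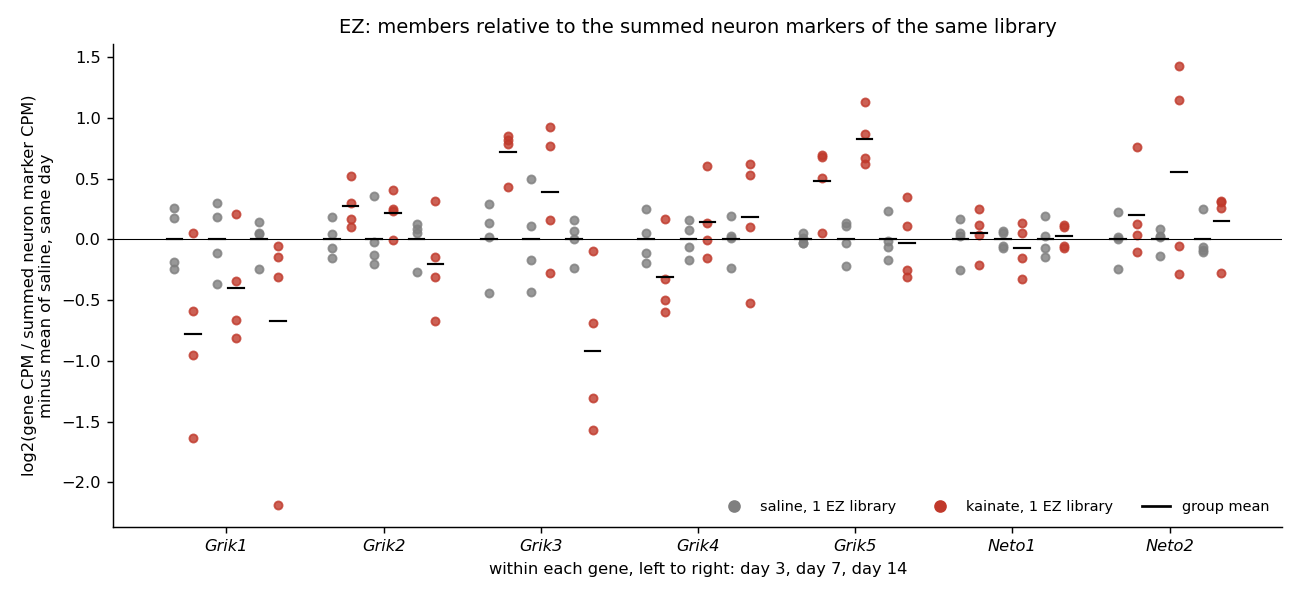
Log2 ratio of each gene's CPM to the summed CPM of 7 neuron markers in the same EZ library, minus the mean of the saline libraries of that day (vertical axis), with saline in grey, kainate in red and the mean of 4 libraries as a black line, days 3, 7 and 14 from left to right within each gene. Neto1 means stay between -0.07 and 0.05, Grik5 is above 0 in every kainate library at day 3 and day 7 (over all genes the median difference was 0.86 and 1.27), and Grik3 goes from 0.72 at day 3 to -0.92 at day 14.

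Other ionotropic glutamate receptor genes also fell in the EZ. Of 13 AMPA, NMDA and delta subunit genes, all tested, 7 fell at day 3, 8 fell at day 7 and none was called at day 14, and none rose, where 8.61%, 11.9% and 0.0374% of all genes were called and lower. Their median log2 fold changes were -0.82, -1.01 and -0.28, against -0.63, -0.90 and -0.22 for the 7 kainate receptor and Neto genes and 0.03, 0.01 and 0.00 for all genes. The AMPA receptor subunit genes Gria3 (-1.22 ± 0.16, adjusted p = 2.76e-07) and Gria2 (-0.96 ± 0.17, adjusted p = 1.99e-05) fell at day 3. The delta receptor gene Grid1 (-1.17 ± 0.16) and Gria3 (-1.01 ± 0.16) fell at day 7. In the PIZ at day 3, where 1.57% of all genes were called and lower, 3 of the 13 fell, among them Gria2 (-0.70 ± 0.17, adjusted p = 0.00246) and Grid1 (-0.65 ± 0.16, adjusted p = 0.00334).

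Of 24 genes for kainate receptor partners (scaffold and trafficking proteins, kinases, the SUMO enzymes that modify GluK2, and synaptic organizers), all tested, 6 fell in the EZ at day 3, 9 fell at day 7, none was called at day 14, and none rose, beside the same shares of all genes. Their median log2 fold changes were -0.24, -0.41 and -0.09. The protein kinase C gene Prkca fell at day 3 (-1.26 ± 0.18, adjusted p = 1.02e-06). Prkca (-1.34 ± 0.18) and Snap25 (-1.53 ± 0.21), a SNARE protein of transmitter release that is also in the neuron list, fell at day 7. In the PIZ at day 3, Kif17, a dendritic kinesin known to carry NMDA and kainate receptor subunits, rose (1.24 ± 0.25, adjusted p = 3.40e-04), and Prkcb fell (-0.73 ± 0.18, adjusted p = 0.00275). These 2 of 24 are a share no larger than the 8.69% of all genes called there in either direction. None of the 24 was called in the PIZ at day 7 or day 14.

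The cell type markers gave the setting of these values, and of all genes 16.1% were called and higher and 8.61% called and lower in the EZ at day 3, and 20.6% and 11.9% at day 7. In the EZ, of the 7 neuron markers 3 fell at day 3 and 5 at day 7 (median log2 fold change -0.59 and -1.21), and of 8 interneuron markers 5 fell at day 3 and 4 at day 7 (-1.95 and -1.28). Of 7 granule cell markers 2 fell at each of these days (-0.91 and -1.04), and of 5 CA3 pyramidal cell markers 3 and 2 fell (-1.22 and -0.71). Of 4 CA1 pyramidal cell markers 2 and 3 fell (-1.77 and -1.79). Of 6 microglia markers 5 and 6 rose (1.30 and 2.66), of 5 astrocyte markers 3 and 4 rose, with 1 lower at day 3 (0.87 and 1.63), and of 4 oligodendrocyte precursor markers 4 rose at each day (1.16 and 1.13). Of 4 mossy cell markers 2 fell at each day and 1 rose at day 7 (-0.46 and -0.29), of 4 endothelial markers 3 rose at each day (1.09 and 0.86), of 3 thalamus markers 1 and 2 rose (0.54 and 0.86), and of 5 oligodendrocyte markers none and 2 rose (-0.16 and 0.70). The choroid plexus list had 2 of 3 genes tested, neither called, at no more than 3.09 CPM in sum in any library. At day 14 in the EZ, 2.32% of all genes were called and higher and 0.0374% called and lower. At that day 4 microglia markers and 2 astrocyte markers were still called higher and no marker of a neuronal list was called. In the PIZ at day 3, 7.12% of all genes were called and higher and 1.57% called and lower. There 6 microglia markers, 3 astrocyte markers and 1 interneuron marker rose, and 1 granule cell marker and 1 CA1 pyramidal cell marker fell. No marker was called in the PIZ at day 7 or day 14, where 0.201% and 0.014% of all genes were called. The part of these cell types in the values of the 7 genes was not tested.

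The genes whose log2 CPM was most like that of each member over the 48 libraries were found among 14964 genes, as a description with no test, since the libraries share treatment, tissue makeup and depth. For Grik2 they included Ksr2 and Ryr2 (Pearson's r 0.96 each), and for Grik1 they were Mir124-2hg, Cnr1 and Rims3 (0.95 each). For Grik4 they were Ap2a2, Slc6a7 and Stmn2 (0.94, 0.93 and 0.92), for Grik5 Sema6b, Zmiz2 and Ubald1 (0.94 each), and for Neto1 Slc2a3, Mtfp1 and Zwint (0.96, 0.95 and 0.95). The closest genes were less close for Grik3, with Sf3b3, Trp53i11 and Dbpht2 (0.83, 0.82 and 0.81), and for Neto2, with Cachd1, Lats2 and Trps1 (0.82, 0.81 and 0.81). Among the members, the largest correlations were those of Grik1 with Grik4 (0.83) and of Grik4 with Neto1 (0.81), and the smallest was that of Grik3 with Neto2 (0.29).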

How the data were processed

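Poly-A selected, strand-specific RNA-seq libraries were prepared from the dorsal dentate gyri of both hemispheres, with the RNA of all samples extracted together. The authors trimmed reads with fastp 0.20.1, aligned them to GRCm39 with HISAT2 2.2.1 and counted read pairs on Gencode M28 genes with featureCounts (Subread 1.6.4, by strand, multi-mapping reads at their primary alignment), and deposited the raw counts per gene and library. Gencode M39, which matched 98.9% of the identifiers, gave positions and exon lengths. 0 columns of per-sample values were left out.

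The counts were analyzed in edgeR 4.0.16 under R 4.3.3. The filterByExpr filter left 21390 genes with 99.92% of counts, which were scaled by TMM and fitted with a quasi-likelihood model with 12 group means over all 48 libraries, giving 14 comparisons. A call needed a Benjamini-Hochberg adjusted p under 0.01 over all genes and a fold over 1.5. The SE is the log2 fold change divided by the square root of F. Log2 CPM for likeness and outlying values used a prior count of 2. CPM were computed from the deposited counts, and library totals of this size leave counting error small beside the spread between mice, except for Grik1. The replicate is the mouse. The 2 libraries of a mouse came from the same animal, and their residuals correlated between -0.0606 and 0.539. The kainate effects compare different mice and the differences between the sides compare libraries within mice. The mouse block was an alternative for both (limma-voom with a random block for the former, edgeR with a fixed block for the latter). Ratios per library were compared with exact permutation tests over the 70 splits of 4 mice against 4. The scripts were tested on simulated data.

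Alternatives were DESeq2 1.42.0, limma 3.58.1 voom with quality weights or a mouse block, other scalings and filters, only the compared groups, an adjusted p under 0.05, plain counts or a prior count of 0.5, and each mouse left out. Leaving out the 3 PIZ libraries with mossy cell markers over 100 CPM and the ratio to neuron markers were added after the data were seen. Members and lists were chosen with earlier results of these data known. Named beside the 7 members are, for each context list, the 2 higher and 2 lower called genes of smallest p in the EZ at day 3 and 7 and the PIZ at day 3, the 3 genes of highest correlation with each member among those with a mean log2 CPM of at least 1, and the 2 most abundant markers of a list where examples were needed. Some genes that this rule names are not reported here.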

Additional observations from a re-analysis of the deposited data

Results flagged for a closer look

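In 84 groups of 4 libraries (7 genes in 12 groups), log2 CPM of the highest or lowest library was examined for a gap to its neighbor above Dixon's critical share of the group's range for 4 samples. Chance alone marks about 1 group in 20, and 5 of 84 were marked. Neto1 in the PIZ library of kainate mouse 21 at day 7 stood above its group (ratio 0.876, 265 CPM), and Grik4 in the PIZ library of saline mouse 34 at day 7 stood above its group (ratio 0.970, 86.8 CPM). Grik1 in the EZ library of kainate mouse 44 at day 3 stood above its group (ratio 0.837, 4.38 CPM). Grik2 stood below its group in the EZ library of kainate mouse 27 at day 14 (ratio 0.850, 40.9 CPM) and in the PIZ library of saline mouse 41 at day 3 (ratio 0.858, 87.7 CPM).

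The kainate effect on Grik1 was called different between the sides at day 7 by edgeR (EZ minus PIZ -2.19 on the log2 scale, adjusted p = 0.00379). In this comparison 9.89% of all genes were called, and the Grik1 call was lost when certain single mice were left out. The difference was -1.82 (adjusted p = 0.0126) without the 3 PIZ libraries with mossy cell markers over 100 CPM.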

How the results depend on the processing

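The number of the 7 genes called in the EZ at day 7 lay between 4 and 7 over all alternatives. An adjusted p under 0.05 without a fold threshold called 5 of the 7 genes at day 3 in the EZ and 1 at day 3 in the PIZ. It called 4 in the difference between the sides at day 7 and 1 in the EZ change from day 7 to day 14. Of all 21390 genes, 11537 had an unadjusted p under 0.05 in edgeR in the EZ at day 3, and 8594 in the day 7 difference between the sides. The share of all genes was not counted under each alternative, so the counts given here describe the processing only. Scaling by library size only moved the median of all genes by 0.13 on the log2 scale in the EZ at day 3 and by less elsewhere, and called 1 in the EZ at day 3 and 0 at day 14. limma-voom with quality weights called 5 at day 3 in the EZ, 1 at day 3 and 1 at day 14 in the PIZ, 4 in the difference between the sides at day 3 and 4 at day 7, and 5 in the EZ change from day 7 to day 14. In the EZ at day 14 the count was 0 with the mouse as a replicate block and 0 with only the groups compared. The block (limma-voom for kainate effects and changes between days, edgeR for differences between the sides) changed no other count of calls. Without the 3 PIZ libraries with a high mossy cell marker sum, the difference between the sides at day 7 had 0 calls. With 1 mouse left out, the counts were 1 to 3 in the EZ at day 3, 0 to 1 in the EZ at day 14, 0 to 2 in the difference between the sides at day 7 and 0 to 2 in the EZ change from day 7 to day 14. The cause of these changes was not tested, and where mice or libraries were left out the fit had fewer samples.

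Directions that turned belonged to effects that were not called, the largest of them Neto1 in the PIZ at day 14 (-0.29) and Grik4 in the PIZ at day 7 (0.26). In the EZ, Grik3 at day 3 was 0.0495 by library size only and -0.22 to 0.0598 with 1 mouse left out. Grik4 at day 14 was -0.0283 with the replicate block and -0.11 to 0.38 with 1 mouse left out. Neto2 at day 14 was 0.00280 with RLE, 0.0257 by library size only, 0.00507 without a filter, 0.0115 with at least 10 counts, 0.00306 with DESeq2, 0.25 with quality weights, 0.00231 with only the groups compared and -0.15 to 0.15 with 1 mouse left out. In the PIZ, Grik4 at day 3 was 0.20 without the 3 libraries and -0.38 to 0.20 with 1 mouse left out, and Grik4 at day 7 was -0.0806 with quality weights. Grik5 at day 3 was -0.0347 to 0.12, Grik2 at day 7 -0.11 to 0.0120, Neto2 at day 7 -0.16 to 0.0201 and Neto1 at day 14 -0.41 to 0.0185 with 1 mouse left out. Grik2 at day 7 was 0.0131 by library size only, and Neto1 at day 14 was 0.0185 without the 3 libraries. Grik1, with the fewest reads, is the gene whose values depth limits most.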
